A study of Mus musculus with 6 samples.

Results

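NuRD is a nucleosome-remodelling and histone deacetylase complex. The 10 genes described here encode its subunits other than the CHD ATPases and the histone deacetylases: Mta1, Mta2, Mta3, Mbd2, Mbd3, Gatad2a, Gatad2b, Rbbp4, Rbbp7 and Cdk2ap1. They were taken as all non-control probes that carry one of these gene names in the array design. This gave 19 probes for 10 genes, of 55681 probes on the array.

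RNA came from the mouse line G1E-ER-GATA-1. These erythroid progenitors have no GATA-1 of their own and carry a GATA-1 fusion that oestradiol activates through an oestrogen receptor domain. All 6 samples received siRNA by nucleofection at 0 h and 24 h and oestradiol at 24 h, and were collected at 48 h. The siRNA was non-targeting in 3 control samples and directed against Mi2β, the NuRD ATPase encoded by Chd4, in 3 knockdown samples. No group without oestradiol or without siRNA was analysed here. Nothing in the labels says that replicates were separate cultures. The spread behind every p-value is that between these samples and may be technical. In bulk RNA, fewer cells of a type and less RNA per cell cannot be told apart.

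In NuRD the MTA proteins are scaffolds that hold the deacetylases and the histone-binding proteins RBBP4 and RBBP7. MBD2 and MBD3 occupy the same place in the complex and exclude each other, and MBD2, unlike mammalian MBD3, binds methylated CpG strongly. GATAD2A and GATAD2B (p66α and p66β) bridge the MBD protein to the CHD ATPase, and CDK2AP1 (DOC1) is a small accessory subunit. In erythroid cells the GATA-1 cofactor FOG-1 recruits NuRD, and MBD2 is known for its part in keeping embryonic globin genes silent.

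Chd4, the target of the siRNA, checks the labels. Its value was 5.89 ± 0.13 (SD, n = 3) in control samples and 4.59 ± 0.04 (SD, n = 3) after knockdown. These and all values below called relative signal are log2 of the array's spot intensity minus that array's 75th percentile. The groups did not overlap, and Chd4 fell by 1.31 (SE 0.10, adjusted p = 0.00163 by limma).

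Each probe is a 60-base oligonucleotide, and the sequence decides which transcript is read. Of the 10 genes, 7 had several probes and 3 (Mta1, Mta2 and Gatad2b) had 1. Probes are numbered here by their start in the target transcript. All 19 were well above background on all 6 arrays and none was saturated, with intensities from 128.8 to 44742, so every member passed the filter on dim probes. The following 6 are shown so that the reader can see what was measured for a member of each paralogue family, with both the dim first and the bright second probe of Mta3. Each has a forward reading frame with no stop codon.
Mta1 probe 1: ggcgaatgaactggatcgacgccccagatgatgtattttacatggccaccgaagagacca
Mta3 probe 1: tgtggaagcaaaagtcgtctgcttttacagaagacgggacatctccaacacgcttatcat
Mta3 probe 2: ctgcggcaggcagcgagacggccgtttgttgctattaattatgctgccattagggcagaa
Mbd3 probe 1: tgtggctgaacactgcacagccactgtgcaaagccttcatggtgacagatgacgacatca
Gatad2b probe 1: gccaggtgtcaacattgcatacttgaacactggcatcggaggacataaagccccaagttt
Rbbp7 probe 1: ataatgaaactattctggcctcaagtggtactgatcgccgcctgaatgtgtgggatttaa

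In the build of the file headers, mm9, these probes lie at chr12:114374583-114374642 (plus strand) for Mta1 and at chr17:84113968-84114027 and chr17:84192044-84192103 (plus) for Mta3 probes 1 and 2. Those of Mbd3 and Rbbp7 lie at chr10:79856639-79856698 (minus) and chrX:159212501-159212560 (plus). The Gatad2b probe is split over chr3:90160166-90161845 (plus), a span of 1680 bp for 60 bases, so its bases are not contiguous in the genome. No mm9 annotation was used here, and which exon or untranslated region each probe covers is not stated.

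The probes of Cdk2ap1 are a special case. Both are designed on the Cdk2ap1 transcript. The array's probe annotation, however, places them on chromosome 11, at 48639324 to 48639383 and 48638879 to 48638938 (mm9, minus strand). RefSeq places the gene on chromosome 5 in its GRCm38.p6 table. A sequence copy on chromosome 11 would be read by the same probes, so signal of the gene and of such a copy cannot be told apart. For the other 9 genes the chromosome of every probe was that of the gene in RefSeq.

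None of the 10 subunits passed the threshold with Mi2β knocked down. The values farthest from 0 were those of Gatad2a, Mbd2 and Mta2: Gatad2a was higher by 0.44 on the log2 scale, and Mbd2 and Mta2 were lower, at -0.36 and -0.33. By limma, 0 of 10 had an adjusted p under 0.05 and 3 of 10 an unadjusted p under 0.05. Over all 22181 genes tested these shares were 9.53% and 23.9%. Groups did not overlap in 3 of the 10, against 31.0% of all genes. Of these, 1 was higher after knockdown (12.7% of all genes) and 2 were lower (18.3%). The members' median change was -0.04 and that of all genes -0.03, and the median size of change was 0.24 and 0.22. On these measures the subunits lay close to the background of the array.

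The call of 0 rested on the processing for these 3 genes, and each adjusted p in what follows is from limma. Gatad2a, Mbd2 and Mta2 all passed with normexp background correction (3 of 10, 13.9% of all genes), with a trend of spread on intensity (3 of 10, 14.9%) and with array weights (3 of 10, 21.4%). Gatad2a and Mbd2 passed among genes detected on all 6 arrays (2 of 10, 14.6%), and Gatad2a alone with quantile normalization (1 of 10, 11.6%). The lowest adjusted p was 0.0127 for Gatad2a, 0.0223 for Mbd2 and 0.0304 for Mta2. Array median scaling lowered every gene alike, with the median of all genes at -0.27. Gatad2a was then at 0.20, Mbd2 at -0.59 and Mta2 at -0.57, with an SE of 0.37 for each of them and adjusted p of 0.818, 0.589 and 0.611. Relative to the median of all genes the 3 changes were the same as without it, at 0.47, -0.33 and -0.30. Of the 19 probes, 2 passed with normexp (12.7% of all probes), 5 with the trend (13.5%), 6 with array weights (20.4%) and 1 with quantile normalization (9.85%).

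**Figure D1:**
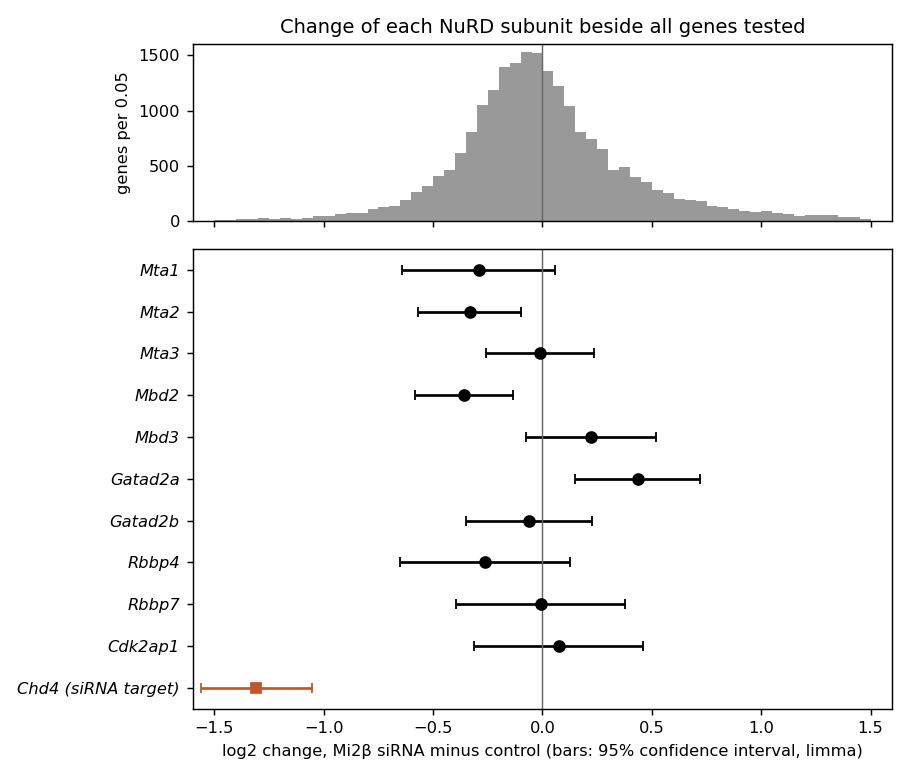
Log2 change of each subunit, knockdown minus control, with its 95% confidence interval from limma (lower panel, points and bars), and the number of genes per 0.05 log2 units among all genes tested (upper panel, from -1.5 to 1.5, with 493 genes beyond). The 10 subunits lie between -0.36 and 0.44, while Chd4, the siRNA target, lies at -1.31.

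Among the MTA scaffolds, Mta2 had the change farthest below 0, close to that of Mta1 (-0.29), and neither passed the threshold. The relative signals of Mta2 were 5.75, 5.70 and 5.58 on control replicates 1 to 3. On knockdown replicates 1 to 3 they were 5.39, 5.26 and 5.38. Every knockdown array lay below every control array. The change was -0.33 (SE 0.10, 95% confidence interval -0.57 to -0.10), and by limma the adjusted p was 0.0936. Changes of larger size were seen in 33.2% of all genes.

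Mta1 pointed the same way with a wider spread. It read 3.04, 2.82 and 2.66 on the control arrays and 2.60, 2.37 and 2.68 on the knockdown arrays, and the groups overlapped, since knockdown replicate 3 lay above control replicate 3. The change was -0.29 (SE 0.14, interval -0.64 to 0.06, adjusted p = 0.287 by limma). In the first row of the slide, with 2 arrays per group, it was -0.44. In the second row, with 1 array per group, it was 0.01.

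Mta3, known in B cells and breast epithelium as the MTA of a Bcl6- and Snail-linked NuRD, had no probe past the threshold. Its second probe, which stands for the gene because it is the brightest, read 3.11, 2.93 and 2.88 in control and 3.01, 2.91 and 2.97 after knockdown. The knockdown values fell inside the control range, with a change of -0.01 (interval -0.26 to 0.23, adjusted p = 0.961 by limma). Probes 1 and 3 had intensities of only 128.8 to 184.2 and changes of -0.12 and -0.11. Their intervals were wide, at -0.48 to 0.25 and -0.41 to 0.18. Within each array, probes 1 and 3 kept nearly the same ratio, which differed between the groups by 0.00 on the log2 scale.

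**Figure D2:**
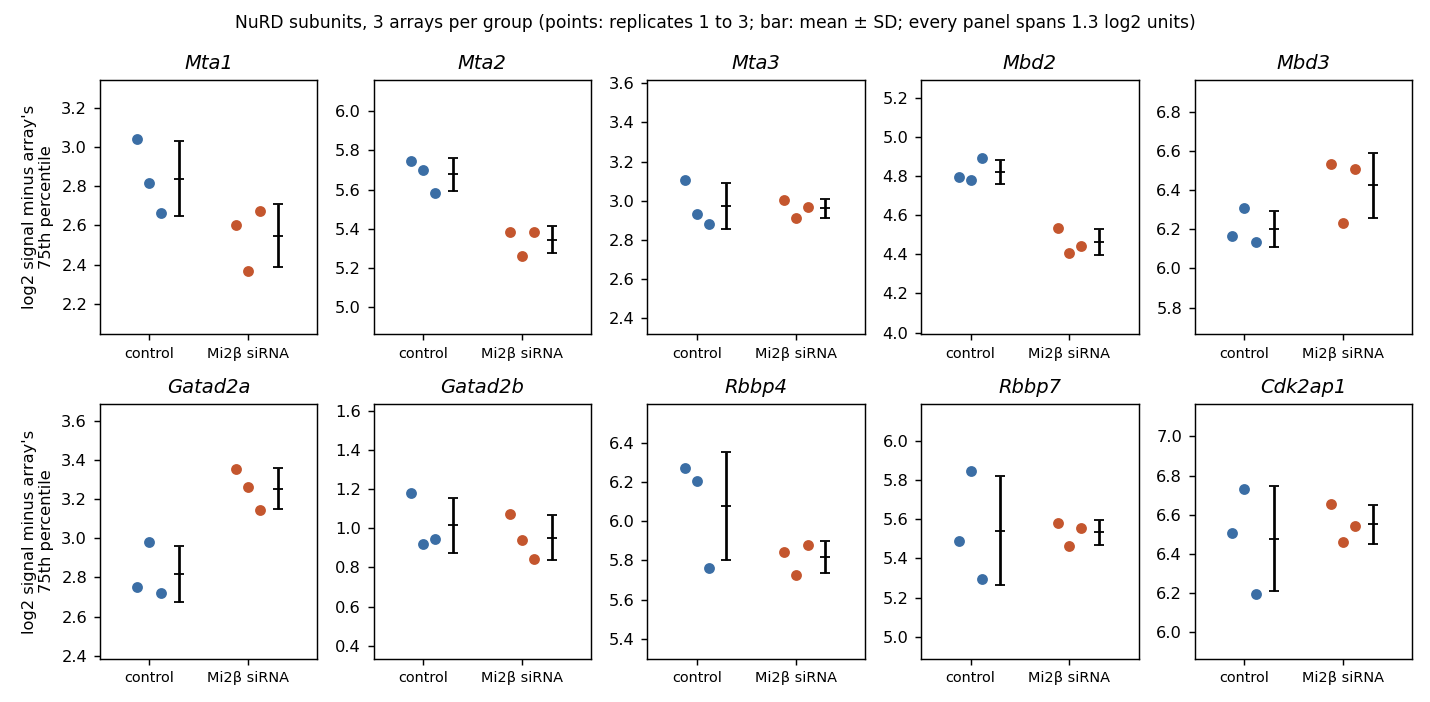
Relative signal (log2 intensity minus the array's 75th percentile) of each subunit's representative probe on the 3 control and 3 knockdown arrays, with the mean ± SD as a bar beside the points. Control and knockdown points are apart for Mta2, Mbd2 and Gatad2a and overlap for the other 7 genes.

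The changes of the MBD pair had opposite signs. Mbd2 read 4.79, 4.78 and 4.89 on the control arrays and 4.53, 4.41 and 4.44 on the knockdown arrays. All knockdown values lay below all control values, and the spread within groups was small (SD 0.06 and 0.07, n = 3 each), smaller than in 95.5% of all genes. The change was -0.36 (SE 0.09, interval -0.58 to -0.14), with an adjusted p = 0.0662 by limma. Its other probe gave -0.39, also without overlap, so both Mbd2 probes showed the same direction on every array. The adjusted p of that probe, over all probes tested with limma, was 0.0964.

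Mbd3 had a change of the opposite sign, at 0.22 (SE 0.12, interval -0.08 to 0.52, adjusted p = 0.341 by limma). It read 6.16, 6.31 and 6.14 in control and 6.53, 6.23 and 6.51 after knockdown. Knockdown replicates 1 and 3 lay above all control arrays, and knockdown replicate 2 lay within them. Its first probe gave 0.12 with overlapping groups. With array median scaling, which moves every gene alike, the change of Mbd3 was -0.01. Relative to the median of all genes it was 0.25 with either scaling.

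Gatad2a was the subunit with the largest change. Its probe 3, which stands for the gene, read 2.75, 2.98 and 2.72 on the control arrays and 3.35, 3.26 and 3.14 on the knockdown arrays. All 3 knockdown arrays lay above all 3 control arrays. The change was 0.44 (SE 0.12, interval 0.15 to 0.72), a ratio of 1.35, with an adjusted p = 0.0773 by limma, and 23.6% of all genes changed by more. Its second probe gave 0.42, again without overlap, and the first probe 0.22 with overlap, so the 3 probes had 1 direction.

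Gatad2b, the paralogue, read 1.18, 0.92 and 0.95 in control and 1.07, 0.94 and 0.84 after knockdown. These values overlapped, and the change was -0.06 (interval -0.35 to 0.23, adjusted p = 0.803 by limma). The interval leaves out a change as large as the 0.44 of Gatad2a. It rests on the single probe printed above.

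The RBBP histone chaperones also serve other complexes, among them Sin3, PRC2 and, for RBBP4, the chromatin assembly factor CAF-1. Rbbp4 read 6.27, 6.20 and 5.76 in control and 5.84, 5.73 and 5.88 after knockdown on its first probe. Control replicate 3 sat among the knockdown arrays. The change was -0.26 (SE 0.16, interval -0.65 to 0.13, adjusted p = 0.391 by limma), and it was -0.45 in the first slide row and 0.12 in the second.

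The second Rbbp4 probe gave the opposite picture. It starts at base 4068 of the transcript, the first at base 1757, and its intensities were low, at 221.4 to 256.2 in control and 334.3 to 407.2 after knockdown. Its relative signal was -0.53, -0.57 and -0.83 in control and -0.12, -0.22 and -0.28 after knockdown, with no overlap. The change was 0.43 (interval 0.14 to 0.73), with an adjusted p = 0.0918 over all probes by limma. Within each array, the log2 ratio of the second to the first probe was -6.80, -6.77 and -6.59 in control and -5.97, -5.95 and -6.16 after knockdown. It differed by 0.70 between the groups, without overlap. Of 11 pairs of probes of the same gene, this was the only one whose ratio did not overlap between the groups. It was singled out after its values were seen and was not tested.

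Rbbp7 had a change close to 0 on its representative probe, with a wide interval. That probe read 5.49, 5.84 and 5.29 in control and 5.58, 5.46 and 5.56 after knockdown, and all knockdown values fell inside the control range. The change was -0.01 (interval -0.40 to 0.38, adjusted p = 0.983 by limma). Its first probe gave 0.11 and did not overlap, with 4.19, 4.35 and 4.33 in control and 4.40, 4.43 and 4.36 after knockdown. That difference was small and its interval, -0.13 to 0.34, holds 0.

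Cdk2ap1 read 6.51, 6.73 and 6.20 in control and 6.66, 6.46 and 6.54 after knockdown on its second probe. The groups overlapped, and the change was 0.07 (interval -0.31 to 0.46, adjusted p = 0.825 by limma). The first probe read 4.02, 4.07 and 3.89 in control and 4.42, 4.18 and 4.23 after knockdown, higher on every knockdown array. Its change was 0.28 (interval 0.01 to 0.56), with an adjusted p = 0.211 over all probes by limma.

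Probe by probe, 0 of 19 passed an adjusted p of 0.05 by limma, against 8.16% of all 31904 probes tested, and the lowest adjusted p was 0.0803. At an unadjusted p under 0.05 there were 7 of 19 (22.6% of all probes). Groups did not overlap for 8 of the 19, with 5 higher and 3 lower after knockdown, against 29.9% of all probes. Probes of the same gene are readings of the same RNA samples and are not replicates.

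**Figure D3:**
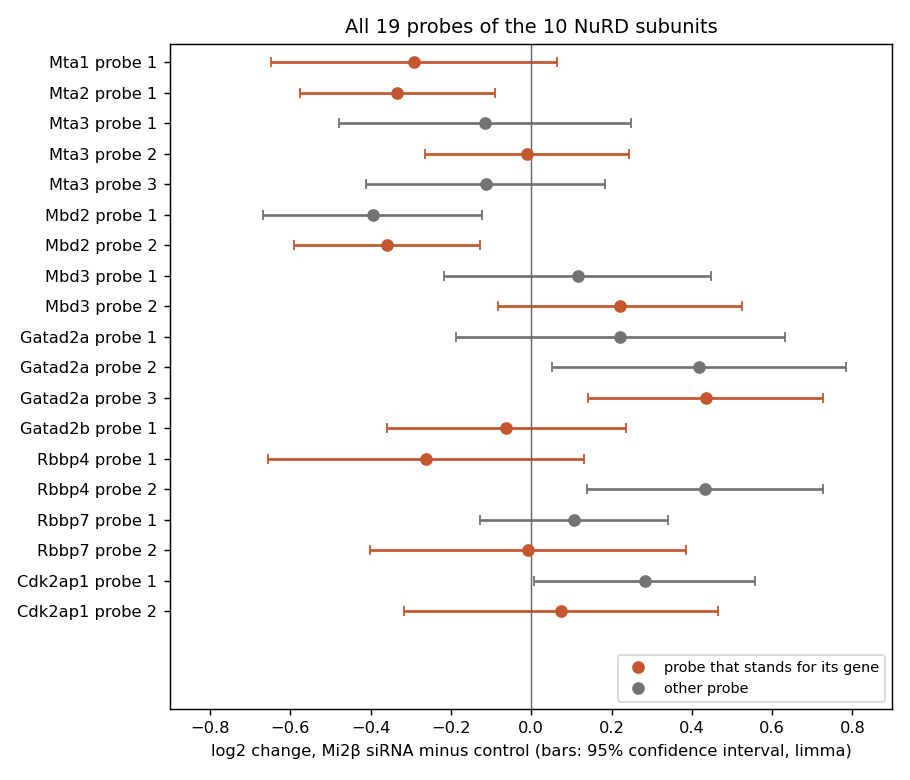
Log2 change, knockdown minus control, of each of the 19 probes with its 95% confidence interval from limma. Probes that stand for their gene are in orange, the others in grey, and the 2 Rbbp4 probes lie on opposite sides of 0, at -0.26 and 0.43.

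The balance between paralogues asks whether the subunits that can replace each other in the complex shifted in proportion. Signals of different probes cannot be set against each other as amounts, since each probe has its own response. The ratio of the same 2 probes can be compared between arrays, and an array's scaling factor cancels in it. The representative probes of 6 pairs were compared, with an exact two-sided permutation test over the samples. With 3 arrays against 3 its smallest p is 0.10, so no pair can reach 0.05, and after Benjamini-Hochberg adjustment over the 6 pairs the smallest is 0.12.

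The largest difference was that of Mbd2 over Mbd3. The log2 ratio was -1.37, -1.53 and -1.25 on the control arrays and -1.998, -1.82 and -2.07 on the knockdown arrays. The groups did not overlap, with the knockdown arrays below. The ratio differed by -0.58, a factor of 1.50, with an exact p = 0.10, the smallest possible. It was -0.46 in the first slide row and -0.82 in the second.

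Gatad2a over Gatad2b differed the other way, by 0.50, a factor of 1.41 (exact p = 0.10). Here the ratio was 1.57, 2.06 and 1.77 in control and 2.28, 2.32 and 2.30 after knockdown. The knockdown arrays agreed closely (SD 0.02, n = 3) and all lay above the control arrays (SD 0.25, n = 3). Both slide rows gave similar values, 0.48 and 0.53.

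In the MTA family, Mta2 over Mta3 differed by -0.32 (exact p = 0.10). Its values of 2.64, 2.77 and 2.70 in control and 2.38, 2.35 and 2.41 after knockdown did not overlap. Mta1 over Mta3 differed by -0.28 (exact p = 0.10), also without overlap, and by only -0.07 in the second slide row. For Mta1 over Mta2 the difference was 0.04 with overlapping groups (exact p = 0.70). The 3 MTA pairs share members, so they are not separate observations.

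Rbbp4 over Rbbp7 differed by -0.25 on the representative probes (exact p = 0.10). The ratio was 0.78, 0.36 and 0.47 in control and 0.26, 0.27 and 0.32 after knockdown, and the lowest control array lay just above the highest knockdown array. Without control replicate 1 the difference was -0.13 (range with arrays left out -0.34 to -0.13). This pair depended on the probes: with the mean over each gene's probes the difference was 0.04 (exact p = 0.90). In all, 5 of 6 ratios did not overlap between the groups, 1 higher and 4 lower. No such share was computed for ratios of other gene pairs, so this count has no background to be read against. The 31.0% of single genes without overlap is not a background for ratios.

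**Figure D4:**
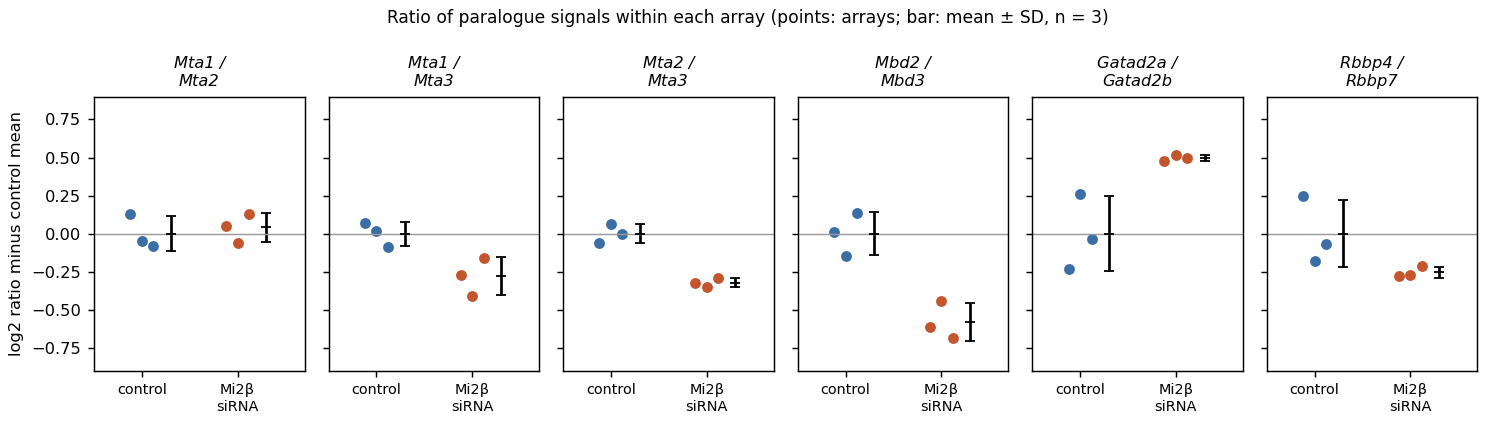
Log2 ratio of the signals of paralogous subunits within each array, shown after subtracting the control mean of each pair, for 3 control and 3 knockdown arrays with the mean ± SD (n = 3). The knockdown points of Mbd2 over Mbd3 lie below and those of Gatad2a over Gatad2b above their control points, while Mta1 over Mta2 overlaps.

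The rest of NuRD and the complexes that share its subunits were read from 6 lists. Of the 5 catalytic subunits, Chd4 fell, and the remodeller gene Chd3 (0.07), Hdac1 (0.10) and Hdac2 (-0.04) did not pass. Of the 12 measured factors that bind NuRD, 1 fell, Zmynd8 (-0.76, SE 0.09, adjusted p = 0.00556 by limma), which encodes a chromatin reader that binds NuRD. This call ended with array median scaling (adjusted p = 0.141), in the first slide row (0.0705) and with a block for replicate (0.0589). None rose by limma.

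Of 6 genes of a list named for methyl-CpG-binding proteins outside NuRD, 1 fell. It was Mbd6, which has an MBD-like domain and is not known to bind methylated CpG (-0.50, SE 0.11, adjusted p = 0.0482 by limma). This call ended with any array left out (adjusted p from 0.0687 to 0.162), and with a block for slide row or replicate, in the first row alone, with array median scaling and with no detection filter.

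Among 12 Sin3 complex genes, 3 fell by limma. These were the Sap30 paralogue Sap30l (-0.92, SE 0.09, adjusted p = 0.00337), the chromatin-binding subunit gene Ing1 (-0.58, SE 0.12, adjusted p = 0.0406) and Arid4a (-0.44, SE 0.10, adjusted p = 0.047). The call of Arid4a ended with any array left out, and that of Ing1 with each array left out but control replicate 3 (adjusted p from 0.0734 to 0.181 and from 0.0378 to 0.133). Both also ended with the slide row as a block (0.0625 and 0.0614), in the first slide row, with array median scaling, with no detection filter and with the mean over probes, and that of Arid4a with quantile normalization. Sap30l kept its call in 18 of 19 alternatives, the exception being array median scaling (adjusted p = 0.0525 by limma).

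Of 9 PRC2 genes, 1 fell, Ezh1 (-1.08, SE 0.16, adjusted p = 0.0132 by limma), which encodes an H3K27 methyltransferase. Leaving out control replicate 1 or 2 or knockdown replicate 1 or 2 ended this call (adjusted p from 0.00834 to 0.0597 over the arrays left out). Of the 9 genes of CAF-1, NURF, Hat1 and MuvB, 0 rose and 0 fell by limma. The largest change there, that of the remodeller gene Smarca1, was 1.43 (SE 0.81, adjusted p = 0.36), on a probe well above background on 3 of 6 arrays. Without control replicate 1 it was 2.37 (adjusted p = 0.0315 by limma), and with normexp background correction 0.08.

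Over the 53 genes measured in these lists, 0 rose and 7 fell by limma, Chd4 included, which is 13.2% against 9.53% of all genes (4.98% rose and 4.54% fell). The list medians were 0.07 for the catalytic subunits, -0.20 for the binding factors, -0.36 for the methyl-CpG binders with MBD5 and MBD6, -0.32 for Sin3, -0.28 for PRC2 and -0.29 for the other complexes. The median of all genes was -0.03. The number that fell differed between settings, from 0 to 3 for the binding factors and for the methyl-CpG binders and MBD5 and MBD6, from 0 to 6 for Sin3, from 0 to 2 for PRC2 and from 0 to 4 for the other complexes. In 5 of 19 alternatives 1 Sin3 gene rose, and Smarca1 rose in 2 of the 18 alternatives that held a value for it.

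Promoter sequence was read as well. RefSeq windows of 300 bases around the start sites (GRCm38.p6) were at hand for 8 of the 10 genes, 10 windows in all. They held 16 to 50 CpG dinucleotides, with a median of 28, against a median of 7 over all 32851 windows. Of all windows 33.0% held 16 or more, a cut that is the members' own lowest count. The windows were not selected for expression, and no background of expressed genes was computed. The GATA motifs AGATAA and TGATAA were searched on both strands with overlapping matches counted. They were found in 2 of the 10 windows (20.0%) and in 18.6% of all windows. The 2 member windows were 1 of Gatad2a and 1 of Gatad2b, and the other window of each gene held none. No window was at hand for Mta3 and Mbd2.

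The arrays also differed in the share of spots detected and in cell type markers. The share of non-control spots well above background was 53.4% to 56.8% in control and 48.9% to 74.0% after knockdown, the highest on knockdown replicate 2. Without that array, 0 members passed by limma (5.23% of all genes), and Gatad2a was at 0.43, Mbd2 at -0.33 and Mta2 at -0.29. All 9 measured erythroid markers were well above background on all 6 arrays, with 2 higher (Alas2, Hbb-bt) and 2 lower (Ahsp, Slc4a1) by limma. The summed level of 5 measured megakaryocyte markers, in multiples of the array's 75th percentile, was 38.6 to 44.3 in control and 14.2 to 18.5 after knockdown, with 3 of 5 lower by limma (Gp1ba, Gp9, Pf4). For 4 measured mast cell markers it was 0.237 to 0.295 and 1.08 to 1.13, with 2 of 4 higher (Mcpt4, Tpsab1). Tpsab1 was well above background on 0 of 3 control and 3 of 3 knockdown arrays, so it passed the detection filter only through the group where it is high. Of 4 measured myeloid markers 1 was higher (Cd68), and of 3 lymphoid markers none passed by limma. Their part in the values of the NuRD subunits was not tested.

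**Figure D5:**
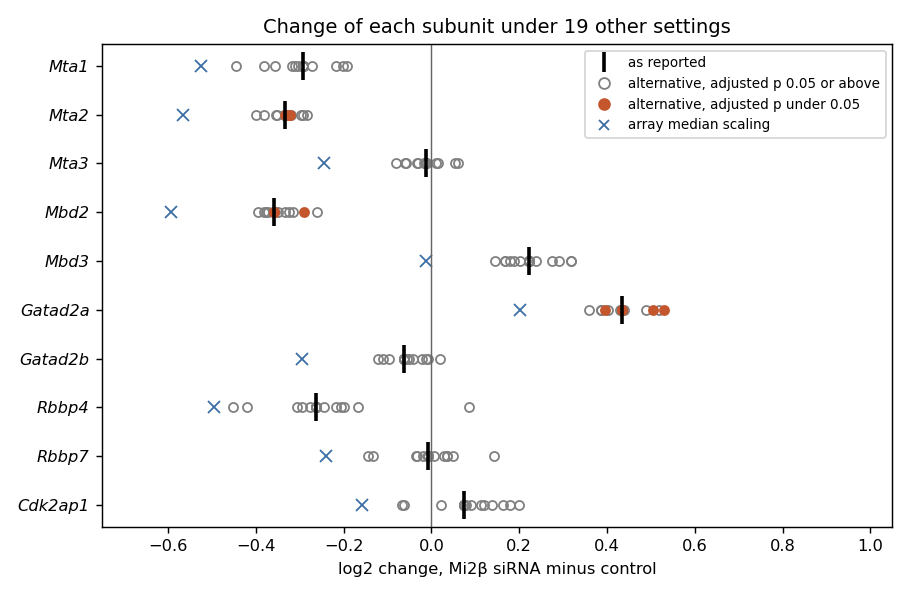
Log2 change of each subunit as reported (black bar) and under 19 other settings of normalization, filter, model and arrays, with filled orange points where the adjusted p from limma was under 0.05 and a blue cross for array median scaling. Only Gatad2a, Mbd2 and Mta2 have orange points, in 5, 4 and 3 of the 19 settings.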

How the data were processed

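Cy3-labelled RNA (0.1 µg per sample) of 3 control and 3 knockdown samples was hybridised to 1-colour Agilent arrays, 1 per sample, all on 1 slide. The deposited spot intensities are linear and background-subtracted. Per the file headers, the software was Feature Extraction, version 10.7.3.1. The submitters' processing notes also name limma, whose settings are not stated there. The intensities in the authors' value table were the same within rounding.

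From these, log2 intensities minus each array's 75th percentile were computed. Control spots and outlier-flagged spots were left out, and 31904 probes remained that were well above background on 3 or more of the 6 arrays. The probe with the highest mean stands for its gene. Names were updated through RefSeq accessions (27509 of 29150 matched). Groups were compared with limma 3.58.1 in R 4.3.3 (two-sided, no covariate, Benjamini-Hochberg adjustment, threshold 0.05, 95% intervals). "Rose" and "fell" mean past that threshold. The fit was tested on simulated data. The number of arrays limits precision. Members, lists and the rule for named genes (all members; Chd3, Chd4, Hdac1, Hdac2; per list up to 4 that passed, or else the largest change) were chosen with earlier results of these data known. Chd5, genes named from the marker lists and the Rbbp4 probe ratio were singled out after their values were seen.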

Additional observations from a re-analysis of the deposited data

How the results depend on the processing

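Of the 10 subunits, 0 passed the threshold as reported (9.53% of all genes did). The number was 3 with normexp background correction (13.9% of all genes), with an intensity trend (14.9%) and with array weights (21.4%). It was 2 with detection on all 6 arrays (14.6%) and 1 with quantile normalization (11.6%). Of their 19 probes, 2 passed with normexp (12.7% of all probes) and 5 with a trend (13.5%). With array weights 6 probes passed (20.4%), and with quantile normalization 1 did (9.85%). With any array left out, 0 subunits passed, where 810 to 1554 of all 22181 genes did. Likewise 0 of their probes passed, where 868 to 1741 of all 31904 probes did. Signs turned for several values: Mta3 to 0.0093 with normexp and 0.061 with quantile normalization; Rbbp7 to 0.0051 with normexp, 0.0357 with quantile normalization, 0.0364 with array weights and 0.049 with the mean over probes; and Rbbp4, at -0.26 as reported, to 0.086 with the mean over probes. Hdac2 turned to 0.0065 with array weights. With array median scaling, which lowers every gene alike and keeps changes relative to the median of all genes, Mbd3 turned to -0.012, Cdk2ap1 to -0.16, Chd3 to -0.17 and Hdac1 to -0.13. In the first slide row Cdk2ap1 was at -0.062 and Mta1 over Mta2 at -0.044, and with the mean over probes Rbbp4 over Rbbp7, at -0.25 as reported, was at 0.0364. With arrays left out the ranges were -0.057 to 0.055 for Mta3, -0.13 to 0.14 for Rbbp7, -0.12 to 0.020 for Gatad2b, -0.067 to 0.20 for Cdk2ap1, -0.20 to 0.056 for Hdac2, -0.0086 to 0.11 for Chd3 and -0.0030 to 0.11 for Mta1 over Mta2. Mta1, Mta2, Mbd2 and Gatad2a kept their direction in all 19 alternatives, and Chd4 its call (adjusted p from 1.96e-05 to 0.0275 by limma). The ratios of Mbd2 over Mbd3 (-0.65 to -0.46) and Gatad2a over Gatad2b (0.38 to 0.63) kept theirs in all 15 alternatives run for them. No value was to be had for probes with the mean over probes, nor for Smarca1 with detection on all 6 arrays. The cause of these differences was not tested.

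The labels do not say whether replicate numbers pair the samples. Same-numbered arrays deviated from their group means with correlations of 0.20, -0.32 and 0.13 across genes. For arrays of different number the correlations ran from -0.41 to 0.33. With 3 arrays per group these values do not decide whether the samples were paired. With the replicate number as a block, 0 subunits passed, and 682 genes in all did against 2113 without it. The block ended the calls of Zmynd8 and Ezh1 (adjusted p = 0.0589 and 0.0582 by limma) and of Mbd6, Ing1 and Arid4a.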
